A study of Mus musculus with 6 samples.

Results

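Vascular growth factor receptors and co-receptors were followed in mouse embryoid bodies that lack the TET enzymes and in wild-type ones. The set held 10 genes: the VEGF receptor genes Kdr, Flt1 and Flt4, the Tie receptor genes Tek and Tie1, the Tie ligand gene Angpt2, the neuropilin genes Nrp1 and Nrp2, the TGF-beta co-receptor gene Eng and the receptor partner gene Ramp2. Members were the array probes whose accession belongs to these genes, 12 of the 55681 probes, and the array covered 20887 named genes in all. Tet1, Tet2 and Tet3 encode dioxygenases that oxidise 5-methylcytosine in DNA, and the series asked how their joint loss affects differentiation of embryonic stem cells. All stem cells were of mixed 129/C57BL6 background and were grown without LIF, for 2 days in hanging drops and 8 more in suspension, and total RNA was taken at 10 days. The wild-type group (WT) was 1 line, and the Tet1/2/3 triple knockout was represented by 2 independent lines, TKO_26 and TKO_29. Each line had 2 one-colour arrays, which the series calls technical replicas, so p-values over arrays compare lines, and the spread they measure may be technical.

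VEGF receptors are tyrosine kinases on endothelial cells and their precursors, and KDR carries most of the signal that drives vessel formation. FLT1 binds VEGF-A tightly with weaker kinase output, and FLT4 serves lymphatic and sprouting endothelium. Tie receptors stabilise formed vessels, with angiopoietins as ligands of TEK. Neuropilins and endoglin have little or no enzymatic activity of their own and work as co-receptors, and RAMP2 turns the calcitonin receptor-like receptor into an adrenomedullin receptor. In embryoid bodies such cells arise from mesoderm that expresses Kdr.

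Levels below are log2 processed signals minus the 75th percentile of the array over probes well above background on every array, so that 0 is a bright probe. A level compares arrays for 1 probe and does not rank different probes. Tested were probes that some line measured well above background on both of its arrays. A probe is said to have fallen or risen when each TKO line differed from WT by 2-fold or more, with a limma adjusted p under 0.05 in each. From 38.4% (TKO_26 replicate 1) to 55.8% of spots were well above background. The arrays lay on 1 slide with WT in one column and TKO in the other, so slide column and genotype cannot be told apart. As a check of the labels, the brighter probe of Tet1 lay at -0.93 and -1.21 on the WT arrays, at -2.01 and -2.17 in TKO_26 and at -2.69 and -2.81 in TKO_29, and both Tet2 probes fell. The other Tet1 probe differed by -0.079 and 0.23, and of 3 Tet3 probes 1 fell. That Tet3 probe was well above background on 1 WT array, 0 TKO_26 arrays and 2 TKO_29 arrays. The brightest Tet3 probe differed by 1.05 in TKO_26 and -0.62 in TKO_29 and was not called. The remaining Tet3 probe was well above background on 2 WT arrays and on 0 TKO arrays. It was lower in TKO_29 (limma adjusted p = 0.0151) but did not pass in TKO_26 (0.0804), so it was not called either. The position of these probes with respect to the deletions was not settled here, so a probe outside them checks nothing.

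Most of the receptor probes were lower in both TKO lines. Of the 11 probes tested, which cover 9 of the 10 genes, 9 fell and 0 rose, while 5.93% of all 28265 probes tested fell and 4.1% rose. The members were chosen with earlier results of these data known, so this contrast is a description and not a test. The 9 probes belonged to 8 genes, namely Kdr on one of its probes, Flt1, Tek, Tie1, Angpt2, Nrp1, Nrp2 on both probes and Ramp2. Of these, Tie1 entered the test through its WT arrays alone. In 10 of the 11 probes every TKO array lay below every WT array, as did 23.9% of all probes tested, 25.8% having the opposite order. The median difference of the member probes was -2.07 on the log2 scale, against -0.00071 over all probes. Against WT alone, 9 member probes were lower in TKO_26 (7.11% of all probes lower, 5.6% higher) and 11 in TKO_29 (10.8% lower, 9.4% higher). In RNA from whole embryoid bodies, fewer cells of a type and less RNA per cell cannot be told apart.

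**Figure D1:**
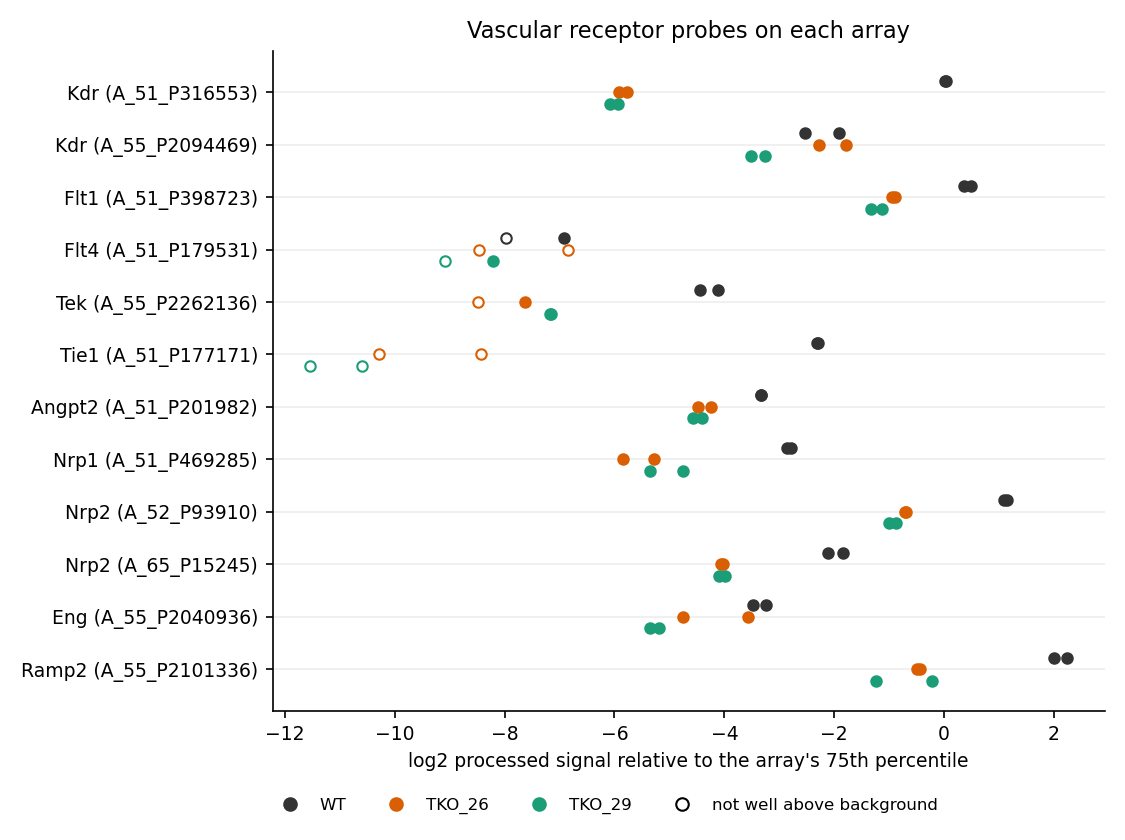
Level of each member probe on each of the 6 arrays (x axis, log2 processed signal relative to the array's 75th percentile), with 1 row per probe, colours for WT, TKO_26 and TKO_29, and open circles where the probe was not well above background. The WT circles lie to the right of all TKO circles in 10 rows. They overlap with TKO circles for the Kdr probe A_55_P2094469 and for Flt4.

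The sequences before the start of 4 of these genes show what the members do and do not share at their promoters. RefSeq sequences of build GRCm38.p6 were at hand for 8 of the 10 genes, Angpt2 and Ramp2 being the others. The array measures no promoter. Each line gives the 250 bases before a RefSeq start, 5′ to 3′ on the gene's strand, with capitals at the ETS core motif (GGAA or TTCC, counted on both strands), the core bound by the ETS factors of endothelium. Kdr and Tie1 had the largest decreases, both Nrp2 probes fell, and Eng did not pass the test.
Kdr: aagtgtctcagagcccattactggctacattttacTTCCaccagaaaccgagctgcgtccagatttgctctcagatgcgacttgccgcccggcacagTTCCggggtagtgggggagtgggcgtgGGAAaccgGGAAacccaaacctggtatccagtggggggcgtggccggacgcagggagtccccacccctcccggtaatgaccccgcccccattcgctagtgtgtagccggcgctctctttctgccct
Tie1: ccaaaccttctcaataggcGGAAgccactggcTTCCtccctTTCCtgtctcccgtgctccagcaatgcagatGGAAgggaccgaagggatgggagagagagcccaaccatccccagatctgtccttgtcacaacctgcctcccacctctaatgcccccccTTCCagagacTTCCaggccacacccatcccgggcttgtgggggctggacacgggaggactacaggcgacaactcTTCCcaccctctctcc
Nrp2: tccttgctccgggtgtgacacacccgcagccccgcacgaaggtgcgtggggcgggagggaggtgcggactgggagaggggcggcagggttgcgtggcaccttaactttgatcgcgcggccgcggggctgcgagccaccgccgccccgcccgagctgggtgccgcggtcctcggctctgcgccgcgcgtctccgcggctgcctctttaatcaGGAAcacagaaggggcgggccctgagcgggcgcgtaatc
Eng: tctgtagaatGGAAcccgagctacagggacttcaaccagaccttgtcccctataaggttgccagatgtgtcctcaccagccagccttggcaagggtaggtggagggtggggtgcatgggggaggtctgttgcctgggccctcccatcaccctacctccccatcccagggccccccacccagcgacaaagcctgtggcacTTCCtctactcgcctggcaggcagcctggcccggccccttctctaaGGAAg
These stretches are chr5:75978456-75978705 (minus strand) for Kdr, chr4:118489850-118490099 (minus strand) for Tie1, chr1:62703067-62703316 (plus strand) for Nrp2 and chr2:32646345-32646594 (plus strand) for Eng. The RefSeq start used for Kdr lies 617 bases inside the outer boundary of the gene. CG dinucleotides, the sites of DNA methylation, numbered 32 before Nrp2, 16 before Kdr, 6 before Tie1 and 4 before Eng. The median over 32841 promoters was 6, with 1 at the 10th percentile and 25 at the 90th. Nrp2 had more CG sites than 95.4% of promoters, while Eng had more than 37.8%. Flt1 had 23, Flt4 16, Nrp1 11 and Tek 2, so that genes that fell lay on both sides of the median. The ETS core was found 7 times before Tie1, 4 times before Kdr, 3 times before Eng and once before Nrp2. All 8 member promoters held it, as did 93.5% of all promoters of this length. A GATA core (GATA or TATC) was found in 2 of the 8, against 53.6% of promoters, and a SOX core (ACAAT or ATTGT) in 1, that of Tek, against 27.7%. A motif of this length is a description of the letters and not a bound site.

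Kdr, the main VEGF receptor gene, gave very different values on its probes, both designed to the same transcript. The probe A_51_P316553, printed as 10 spots on each array, lay at 0.032 and 0.016 on the WT arrays, at -5.78 and -5.92 in TKO_26 and at -6.08 and -5.94 in TKO_29. Every TKO array was thus far below both WT arrays, by at least 5.79. The difference was -5.87 ± 0.13 (SE, 2 arrays a line) in TKO_26, 58.5-fold, and -6.03 ± 0.13 in TKO_29, 65.3-fold, with adjusted p of 3.59e-04 and 3.52e-04. Its repeated spots varied little, with a coefficient of variation of 3.80% to 4.93% on the WT arrays, 7.36% to 8.39% on the other TKO arrays and 18.6% on TKO_26 replicate 1. On that array 6 of the 10 spots were well above background, and on each other array all 10 were. Tests on line averages took no spread from WT and moderated that of the TKO lines over all probes. This probe thus had an SE of 0.34, with TKO lines differing by -0.16. With 1 averaged value per line, a test with a single WT value and the spread of the 2 TKO lines alone, this was the 1 member probe called (limma adjusted p = 0.0449), as were 0.747% of all probes, 0.637% being lower. That call was lost with quantile normalisation, with no filter, with signal demanded on every array, and without TKO_26 replicate 2 or TKO_29 replicate 2, and the count of member probes called ran from 0 to 8 over the alternatives.

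The second Kdr probe, A_55_P2094469, lay at -1.92 and -2.53 in WT, at -1.79 and -2.27 in TKO_26 and at -3.51 and -3.26 in TKO_29. TKO_26 therefore overlapped with WT, and both TKO_29 arrays lay below all others. TKO_26 differed from WT by 0.19 ± 0.29 (95% interval -0.55 to 0.93, adjusted p = 0.669) and TKO_29 by -1.16 ± 0.29 (adjusted p = 0.0340). The difference between the TKO lines themselves was -1.35 and did not pass (adjusted p = 0.0967), with 0.0395 under a variance prior that follows the signal. The log2 ratio of the first probe's signal to the second's was 1.95 and 2.55 on the WT arrays, -3.99 and -3.65 in TKO_26 and -2.57 and -2.68 in TKO_29. The signals of the probes thus changed unequally. Among 3679 genes with several probes tested, the range of the mean TKO differences was 0.47 at the median and 5.47 for Kdr, and 3 genes, Kdr included, reached that range. Taking the brightest probe by mean signal over all arrays, as is common, would have left Kdr with a difference of -0.48, which was -0.18 without WT replicate 1 and -0.79 without WT replicate 2. The TKO_29 call of this probe was lost with normexp (adjusted p = 0.0631), with no filter (0.152), and without WT replicate 1 (0.116), TKO_29 replicate 1 (0.154) or TKO_29 replicate 2 (0.0958). The part of the transcript that each probe matches was not determined here.

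**Figure D2:**
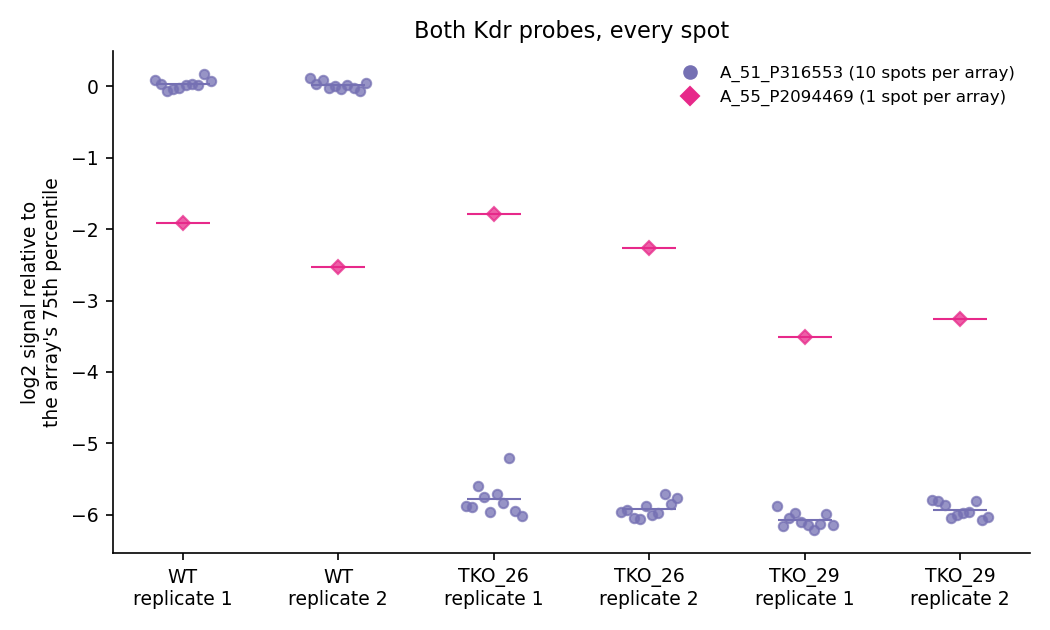
Level of every spot of the Kdr probes (y axis, log2 signal relative to the array's 75th percentile) on each array, with circles for A_51_P316553, diamonds for A_55_P2094469 and dashes for the mean of a probe. The 10 circles of an array stay close together, near 0 in WT and near -6 in both TKO lines, while the diamonds of TKO_26 lie among those of WT.

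Flt1, whose product binds VEGF-A and limits its action, fell less. Its probe lay at 0.36 and 0.49 in WT, at -0.94 and -0.88 in TKO_26 and at -1.12 and -1.33 in TKO_29. WT and TKO arrays did not overlap, and TKO_29 stood slightly below TKO_26. The decreases were 2.53-fold in TKO_26 (-1.34 ± 0.14, adjusted p = 0.00558) and 3.14-fold in TKO_29 (-1.65 ± 0.14, adjusted p = 0.00276). Flt1 is also made by trophoblast giant cells, and 4 of 5 tested markers of these cells fell as well (median difference -5.63). Their summed signal relative to the 75th percentile was 4.38 to 4.71 in WT, 3.80 to 4.77 in TKO_26 and 2.49 to 2.62 in TKO_29. Most of that sum was Gcm1, the 1 marker that was not called, known from the placental labyrinth and chosen for mention after its values were seen. The other 4 markers summed to 1.66 to 1.71 in WT, 0.035 to 0.049 in TKO_26 and 0.026 to 0.028 in TKO_29, with Ctsq above background on 0 of 4 TKO arrays. The part of these cells in the Flt1 difference was not tested.

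Flt4, the receptor of VEGF-C and VEGF-D, was too dim to test. Its levels were -7.98 and -6.92 in WT, -6.85 and -8.47 in TKO_26 and -8.21 and -9.08 in TKO_29. It was well above background on WT replicate 2 and TKO_29 replicate 1 alone, and the groups overlapped, so a difference was not measurable at this signal.

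Both Tie receptor genes fell, Tie1 to background. Tie1, an orphan receptor that modulates TEK signalling, lay at -2.31 and -2.30 in WT, at -8.43 and -10.3 in TKO_26 and at -11.5 and -10.6 in TKO_29. Its signal passed background on both arrays of WT but not on any of the 4 arrays of the knockouts, so the TKO values have no order and the fold is a bound. For such bounds the lowest signal well above background on an array stands in for dimmer values. Tie1 was at least 28.4-fold lower in TKO_26 and at least 111-fold lower in TKO_29. The limma adjusted p, 0.00437 and 0.00222, came from the TKO signals below background and not from these bounds.

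Tek, the angiopoietin receptor of endothelium and early blood progenitors, lay at -4.44 and -4.11 in WT, at -8.48 and -7.63 in TKO_26 and at -7.15 and -7.18 in TKO_29. All TKO arrays were below WT. TKO_26 replicate 1, the array with the smallest share of bright spots, was not well above background for this probe, so the TKO lines have no measured order. The decrease was at least 6.34-fold in TKO_26 (adjusted p = 0.00293) and 7.43-fold in TKO_29 (-2.89 ± 0.31, adjusted p = 0.00450). The TKO_26 p-value came from the signals as measured, the dim array included, and not from the bound. With quantile normalisation the TKO_29 difference had an adjusted p of 0.0816 and the call was lost.

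Angpt2, an angiopoietin that endothelial cells release during remodelling, fell by little more than 2-fold. Its levels were -3.33 on both WT arrays, -4.24 and -4.48 in TKO_26 and -4.58 and -4.41 in TKO_29. The groups did not overlap, but the decreases of 2.04-fold (-1.03 ± 0.15, adjusted p = 0.0125) and 2.24-fold (-1.16 ± 0.15, adjusted p = 0.00653) lay just past the 2-fold threshold. The call was lost under normexp background correction (mean difference -0.89), the 75th percentile over all probes (-1.02), quantile normalisation (-1.0) and the authors' matrix values (-0.76). It was lost too without WT replicate 1 (-1.10), WT replicate 2 (-1.10), TKO_26 replicate 2 (-1.04) or TKO_29 replicate 1 (-1.06).

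The neuropilin genes, whose products bind VEGF and class 3 semaphorins, both fell. Nrp1 lay at -2.85 and -2.78 in WT, at -5.28 and -5.85 in TKO_26 and at -5.36 and -4.75 in TKO_29. The TKO lines overlapped each other, and all their arrays were at least 1.90 below WT. The decreases were 6.74-fold in TKO_26 (-2.75 ± 0.29, adjusted p = 0.00558) and 4.72-fold in TKO_29 (-2.24 ± 0.29, adjusted p = 0.00683).

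Nrp2 was measured by probes to different transcripts, and these agreed. Probe A_52_P93910 lay at 1.09 and 1.15 in WT, at -0.72 and -0.69 in TKO_26 and at -0.88 and -1.0 in TKO_29. Probe A_65_P15245 lay at -1.84 and -2.10 in WT, at -4.02 and -4.07 in TKO_26 and at -4.10 and -3.99 in TKO_29. On both probes the TKO lines stood close together and apart from WT. The first fell 3.52-fold in TKO_26 and 4.17-fold in TKO_29 (adjusted p = 0.00187 and 0.00134). For the second the decreases were 4.21-fold in each line (adjusted p = 0.00205 and 0.00184). The mean differences of these probes were 0.14 apart, whereas those of Kdr were 5.47 apart. Neurons also express neuropilins, and 1 of 7 tested neuronal markers fell. This was Tubb3, whose call was lost with normexp (-1.74), with no filter, and without any 1 array other than WT replicate 2. The summed signal of the 7 markers was 0.702 to 0.869 in WT, 0.819 to 0.918 in TKO_26 and 0.713 to 0.723 in TKO_29.

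Eng, the endoglin gene of endothelium and mesenchyme, did not pass in both lines. It lay at -3.47 and -3.25 in WT, at -3.56 and -4.75 in TKO_26 and at -5.36 and -5.19 in TKO_29. TKO_26 replicate 1 was 0.093 below the nearer WT array, while replicate 2 of that line lay clearly below both WT arrays. The difference was -0.80 ± 0.41 in TKO_26 (95% interval -1.84 to 0.25, adjusted p = 0.230) and -1.92 ± 0.41, or 3.78-fold, in TKO_29 (adjusted p = 0.0230). The TKO_29 call was lost with no filter (adjusted p = 0.110) and without TKO_29 replicate 1 (0.114), TKO_29 replicate 2 (0.0883), WT replicate 1 (0.0820) or WT replicate 2 (0.0854). Without TKO_26 replicate 1 the gene fell in both lines (mean difference -1.65, adjusted p = 0.0256 in TKO_26). Without TKO_26 replicate 2 the TKO lines differed from each other by -1.71 (adjusted p = 0.0381), which was -1.12 (adjusted p = 0.203) over all arrays.

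Ramp2, needed for adrenomedullin signalling in vessels, was bright in WT and fell. It lay at 2.24 and 2.01 in WT, at -0.49 and -0.44 in TKO_26 and at -1.24 and -0.21 in TKO_29. The TKO_29 arrays spanned those of TKO_26, and all 4 were at least 2.22 below WT. The decreases were 6.01-fold in TKO_26 (-2.59 ± 0.36, adjusted p = 0.0109) and 7.21-fold in TKO_29 (-2.85 ± 0.36, adjusted p = 0.00625). Without WT replicate 1 the call was lost, at a mean difference of -2.60.

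**Figure D3:**
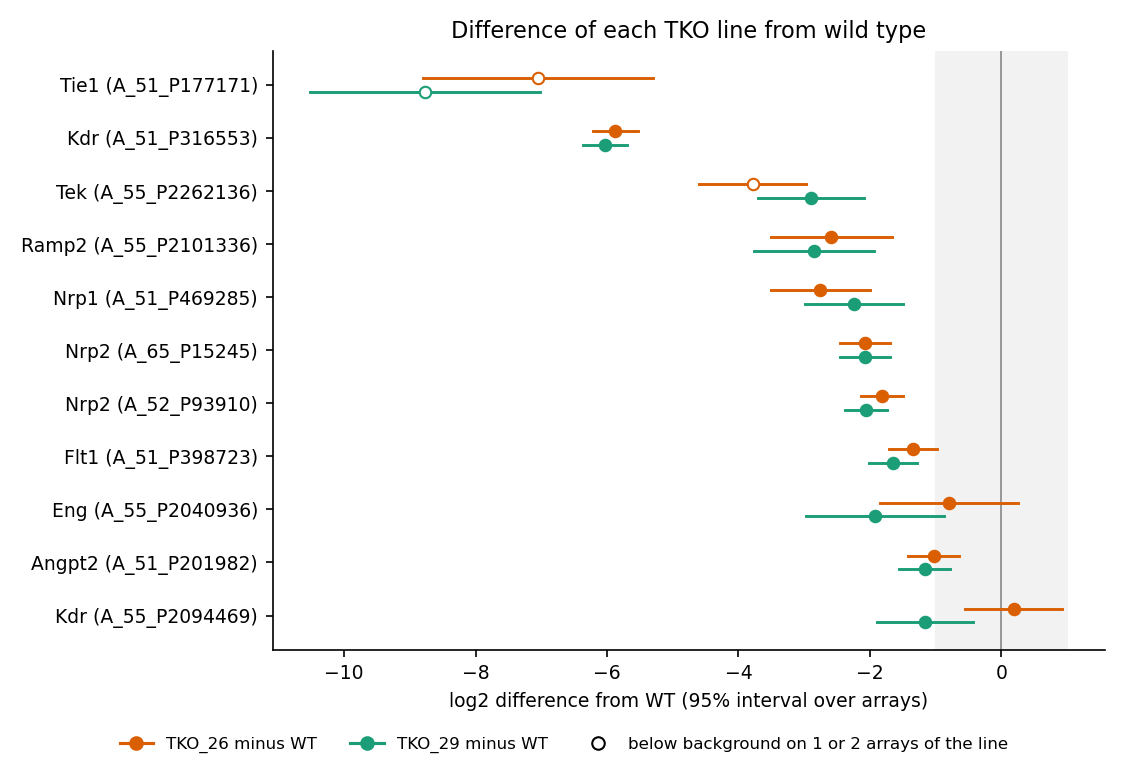
Log2 difference of TKO_26 and TKO_29 from WT for the 11 member probes tested, with 95% intervals over arrays, ordered by mean difference; open circles mark lines in which 1 or 2 arrays were not well above background, and the grey band covers less than 2-fold. The intervals of the Kdr probe A_51_P316553 overlap with those of Tie1 in TKO_26 and with those of no other probe, and those of the Kdr probe A_55_P2094469 and of Eng reach 0 in TKO_26.

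The members thus differed in size of decrease. By mean difference of the TKO lines, Kdr on A_51_P316553 (61.8-fold; -5.95, 95% interval -6.25 to -5.66) and Tie1 (at least 56.1-fold) came first, in no settled order. Tek was at least 6.86-fold lower, so its place beside Ramp2 (6.58-fold; -2.72, -3.51 to -1.92) and Nrp1 (5.64-fold; -2.50, -3.15 to -1.85) is not settled either. Ramp2, Nrp1 and both Nrp2 probes (-2.07 and -1.94) could not be ordered, and Flt1 (-1.50), Eng (-1.36) and Angpt2 (-1.10) overlapped as well. These groups were not separate. The 95% interval of Flt1 (-1.81 to -1.18) overlapped those of both Nrp2 probes. That of Eng (-2.26 to -0.45) overlapped those of Ramp2, Nrp1 and both Nrp2 probes. No member probe (0 of 11) passed the test between the TKO lines in limma, where adjusted p ran from 0.0967 to 0.997 and 0.492% of all probes passed. At an unadjusted p under 0.05, 3 did: Eng, the second Kdr probe and Tek, the last resting on an array at background.

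Partners of these receptors, other receptors, signalling genes and endothelial transcription factors were described next, from 10 lists of 100 genes. Of 87 tested, each on its brightest probe, 34 fell and 3 rose, and their median difference was -0.75. Over all 14577 named genes tested, 8.03% fell, 3.99% rose and the median was -0.027. The lists too were chosen with earlier results known, so this contrast is likewise no test. Calls lost when dim probes were not filtered out are named in the last section. The plot of mean differences by list shows where the decreases lay.

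**Figure D4:**
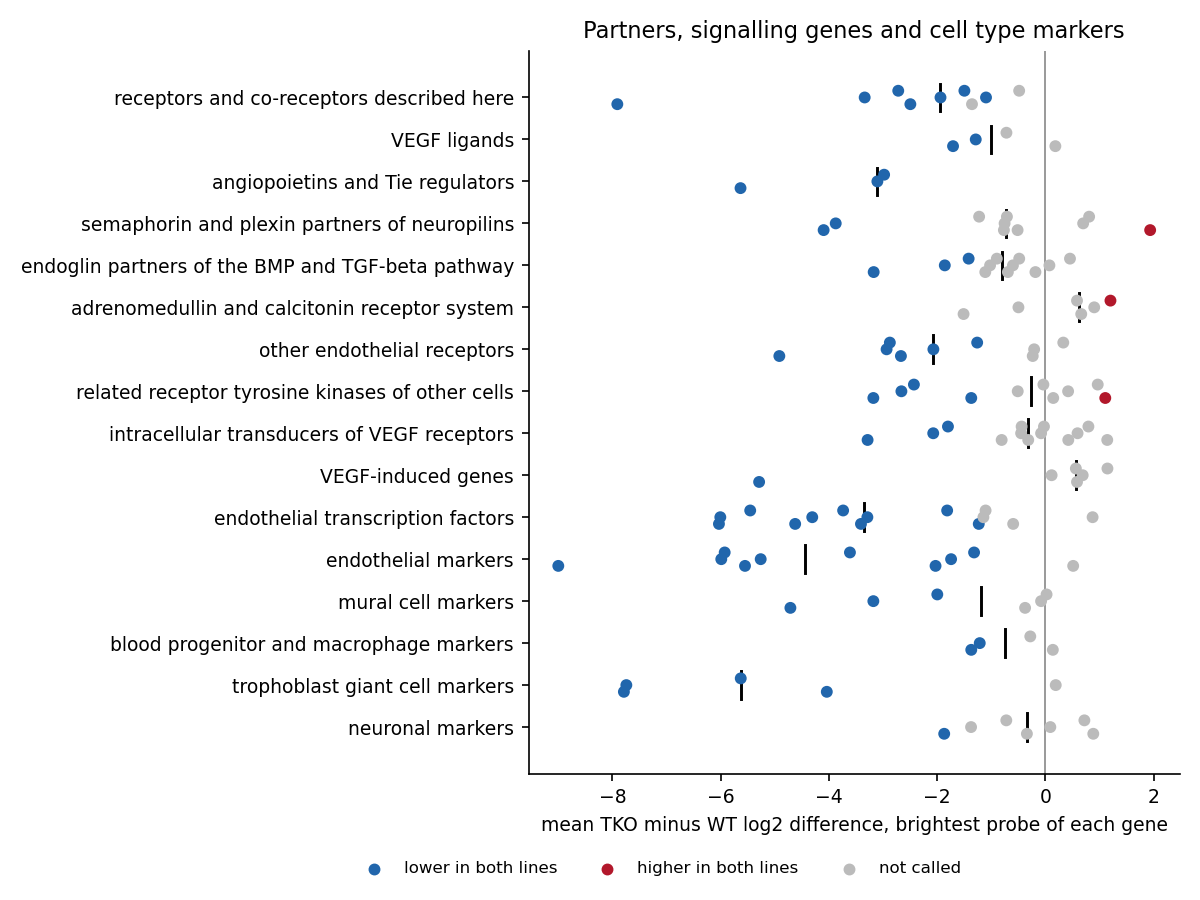
Mean TKO minus WT log2 difference (x axis) of each gene on its brightest probe, by list, with blue points for genes lower in both lines, red for genes higher in both, grey for genes not called and a bar at the median. Kdr appears on its less changed probe. Endothelial markers and transcription factors lie mostly far to the left, with medians of -4.44 and -3.35, while VEGF-induced genes other than Esm1 lie right of 0.

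Of 4 VEGF ligand genes tested, 2 fell and none rose. Pgf, a ligand of FLT1, fell 3.26-fold and Vegfd fell 2.44-fold. Vegfa, the main ligand of KDR, differed by 0.18 on its brightest probe (adjusted p = 0.825 in TKO_26 and 0.131 in TKO_29) and by 0.27 and 0.41 on its other one. Vegfc, a ligand of FLT4, differed by -0.72. The Pgf call was lost with quantile normalisation (mean difference -1.66) and without WT replicate 2 (-1.37), TKO_26 replicate 1 (-1.56), TKO_29 replicate 1 (-1.70) or TKO_29 replicate 2 (-1.72). The Vegfd call was lost without either TKO_29 array (-1.30 and -1.28).

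On the Tie side all 3 genes tested fell. Angpt1, the activating ligand of TEK, was at least 6.82-fold lower and was measured on 3 of 4 TKO arrays. Ptprb, the phosphatase that acts on TEK, passed background on 0 of 4 TKO arrays and was at least 18.5-fold lower. Svep1, an extracellular protein that binds TIE1, was at least 5.52-fold lower, a call lost with quantile normalisation (-3.18) and without TKO_29 replicate 1 (-2.88).

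Of 10 semaphorin and plexin genes tested, 2 fell and 1 rose. Plxnd1, an endothelial semaphorin receptor, fell 17.1-fold, with differences of -3.67 and -3.09 on its other probe. Plxna4, a plexin that pairs with neuropilins, was at least 11.2-fold lower. Sema3e, a ligand of PLXND1, rose 3.83-fold.

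Among 12 partners of endoglin in the BMP and TGF-beta pathway, 3 fell and none rose. Acvrl1, the ALK1 receptor of endothelium, fell 9.02-fold, the inhibitory Smad6 fell 3.63-fold and the type I receptor gene Tgfbr1 fell 2.67-fold. The other Tgfbr1 probe, above background on 1 WT array, differed by -1.06 and 0.013. The ALK1 ligand genes Gdf2 and Bmp10 were too dim to test.

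In the adrenomedullin and calcitonin system, 1 of 6 genes tested rose and none fell. This was Calca, the calcitonin gene, 2.30-fold higher, whose call was lost without TKO_29 replicate 1 (1.14). Its other probe was also higher, 1.96-fold in TKO_26, just short of the 2-fold threshold, and 2.31-fold in TKO_29. Adm, the adrenomedullin gene, differed by 0.66. Calcrl, the receptor that RAMP2 escorts, was not well above background on any array, so the Ramp2 decrease was measured without that of its partner.

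Of 9 other endothelial receptor genes tested, 6 fell. The decreases were at least 25.3-fold for Robo4, which counters VEGF signalling, 7.64-fold for the sphingosine receptor S1pr1, at least 6.27-fold for Notch4 and at least 4.80-fold for the endothelin receptor Ednrb. The calls of S1pr1 and Notch4 were each lost without any 1 of the WT or TKO_29 arrays, at mean differences of -2.92 to -2.95 and -2.79 to -2.95, and that of Notch4 also with quantile normalisation (-2.92) and with the replicate number as a block (adjusted p = 0.0553 in TKO_29).

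Of 10 related receptor tyrosine kinases, 4 fell and 1 rose. Pdgfrb, the PDGF receptor of mural cells, fell 9.06-fold, Pdgfra of mesenchyme fell 5.39-fold and Csf1r of macrophages fell 2.58-fold on its brightest probe. The other Csf1r probes tested were not called, with mean differences of -0.34 and -0.28. Flt3 of blood progenitors was at least 4.25-fold lower and was not called with normexp (-1.35). The gene that rose was Met, named after its values were seen. It was well above background on 1 WT and 3 TKO arrays, so its rise is bounded at no less than 1.58-fold, and its call was lost without any 1 array other than WT replicate 2, at mean differences of 0.83 to 1.20, and with normexp (0.33), the authors' matrix values (0.53), quantile normalisation (1.09), outlier spots kept (0.90), no filter or the replicate number as a block (adjusted p = 0.0516 in TKO_26).

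Inside the cell, 3 of 13 transducers tested fell and none rose. Nos3, the endothelial nitric oxide synthase, fell 9.75-fold, and the protein kinase C genes Prkcb and Prkca fell 4.21-fold and 3.48-fold, with their other probes also lower in both lines. Of 6 VEGF-induced genes tested, 1 fell. This was Esm1, a marker of sprouting tip cells, at least 18.1-fold lower, while the list's median was 0.57.

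Endothelial transcription factors and markers moved with the receptors. Of 14 transcription factor genes 10 fell, among them Sox18 (at least 44.4-fold), Sox7 (at least 35.4-fold), Tal1 (at least 35.0-fold) and Fli1 (at least 18.1-fold). The Sox7 call was lost without any 1 of the WT or TKO_29 arrays, at -5.81 to -6.21. Erg, Mef2c and Gata2, also among the 10, lost their calls with normexp (-1.36, -1.69 and -1.11) and with no filter. They lost them too without WT replicate 1 or either TKO_29 array. Erg further lost its call with the 75th percentile over all probes, quantile normalisation, the authors' matrix values and outlier spots kept. A variance prior that follows the signal and the replicate number as a block also removed the Erg call. Of 10 endothelial markers 9 fell. Their summed signal relative to the 75th percentile was 11.1 to 12.6 in WT, 3.34 to 3.59 in TKO_26 and 2.58 to 2.91 in TKO_29. The exception was Pecam1, named after its values were seen, an adhesion molecule of endothelium and of embryonic stem cells, at 0.51. All 10 markers were well above background on the WT arrays and 6 to 9 on the TKO arrays. Emcn, a sialomucin of endothelium, passed background on 0 of 4 TKO arrays, and Cdh5, the endothelial cadherin, on 3. Egfl7, counted among the 9, lost its call with quantile normalisation (-0.96), the authors' matrix values (-0.63), no filter, or without WT replicate 1 (-1.16). How far the receptor decreases follow those of the markers was not tested.

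Markers of other cells that can express members were set beside them. Of 6 mural markers tested 3 fell, with a summed signal of 8.64 to 13.4 in WT, 3.27 to 3.97 in TKO_26 and 3.49 to 4.06 in TKO_29. Of 4 blood progenitor and macrophage markers tested 2 fell, with 0.728 to 0.729 in WT, 0.515 to 0.530 in TKO_26 and 0.433 to 0.453 in TKO_29. The 2 were Csf1r and Gata1, and the Gata1 call was lost with normexp (-0.98), the authors' matrix values (-0.91) or no filter. Pdgfrb and Csf1r stand in these lists as well as among the receptor kinases above. The part of these cells in the decreases of Tek, Eng and the neuropilins was not tested.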

How the data were processed

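Cy3-labelled cRNA of 6 samples was hybridised to 1-colour Agilent arrays, per the labels' protocols. Per the file headers, the scanner files came from Feature Extraction 10.5.1.1 on an array design of build mm9 and hold a processed signal intensity, background-subtracted and detrended within the array. Also deposited was a matrix of the authors' log2 values, made by a method not given in the sources used here. Its columns followed the log2 median signals of their own arrays (Pearson r over probes 0.995 to 1.00, against 0.982 to 0.996 for the best other array), so scale and direction were settled, and column medians were 6.87 to 6.89.

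Control spots and spots flagged as outliers were left out, and log2 values of a probe's repeated spots were averaged. A probe counted as well above background where over 50% of its spots were. Scaling used the 75th percentile over 19173 such probes on all 6 arrays. Accessions were named through RefSeq (GRCm38.p6), which matched 27509 probes. Tests used limma 3.58.1 in R 4.3.3 with 3 groups of 2 arrays and 3 residual degrees of freedom, and line averages with WT n = 1 and TKO n = 2 lines. For line averages the spread came from the TKO lines and not from WT, and was moderated over all probes. Values after ± are SEs of the fit. P-values were adjusted (Benjamini-Hochberg) over all 28265 probes tested. The fits were tested on simulated arrays. The members and lists were chosen with earlier results of these data known. Genes were named by rule: all members, fixed ligands and partners, and up to 4 genes of each list with the largest differences among those called. Plots used Python 3.11.15 with matplotlib 3.10.9.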

Additional observations from a re-analysis of the deposited data

How the results depend on the processing

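The number of lines and arrays limits every value here, and dim probes such as Tie1, Tek and Flt4 give bounds or no value. The results were recomputed under 17 alternatives, and of 163 member probe differences none changed sign. Settings that alter only the filter or the variance leave a difference as it is. For the 9 probes called in both lines, the call stood in 119 of 133 cases and was lost in 14. For Eng and the second Kdr probe, not called in both lines, it was gained in 1 of 30, Eng without TKO_26 replicate 1. The cause was not tested unless stated.

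Testing all 55418 probes without a filter, which adds dim probes to the adjustment, lowered the member probes that fell in both lines from 9 to 5, Flt1, Angpt2, Nrp1 and Ramp2 being lost. Those called in TKO_26 went from 9 to 5 and in TKO_29 from 11 to 7. Pathway genes that fell went from 34 to 19 and those that rose from 3 to 1. Of the pathway genes and markers, Vegfd, Pgf, Ptprb, Svep1, Tgfbr1, Smad6 and Calca lost their calls. So did S1pr1, Notch4, Csf1r, Met, Prkca, Sox7 and the endothelial marker Emcn. The same held for the endothelial receptor gene Ackr3 and the transcription factor genes Gata2, Erg and Mef2c. Among the markers it also held for Egfl7 and Vwf (endothelial), Acta2 (mural), Gata1 (blood) and Tubb3 (neuronal). Demanding signal above background on every array, which drops genes at background in TKO, left 20 pathway genes that fell and 7 member probes. Pathway genes that rose numbered 6 with the 75th percentile over all probes, 5 with quantile normalisation and 8 with no fold threshold. Member probes called on line averages, 1 in the fit reported, numbered 2 with the 75th percentile over all probes, 8 with a variance trend, 7 with normexp and 8 with the authors' matrix values. The count was 0 without a filter, 0 with quantile normalisation and 0 with signal demanded on every array. Between the TKO lines 1 member probe, Kdr A_55_P2094469, was called with a variance trend. Normexp was run on median signals, since the files used here hold no mean signal. It moved the median difference of all probes to -0.12 and the probes that rose and fell in both lines to 369 and 987, from 1159 and 1676.

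Leaving out each array in turn gave 7 to 10 member probes lower in both lines, 7 to 10 called in TKO_26, 8 to 11 in TKO_29 and 0 to 1 between the TKO lines. On line averages it gave 0 to 7, with 0 without TKO_26 replicate 2 and 0 without TKO_29 replicate 2. Pathway genes that fell numbered 25 to 32 and those that rose 1 to 5. With 4 TKO arrays as 1 group against WT, 9 member probes fell.

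The replicate numbers did not pair the arrays: correlations of deviations between same-numbered arrays were 0.18, -0.13 and -0.21. With the replicate number as a block, 9 member probes fell in both lines, 9 were called in TKO_26, 11 in TKO_29 and 0 between the TKO lines, and 31 pathway genes fell and 2 rose.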
